A study of Mus musculus with 6 samples.

Results

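Interneurons are the inhibitory nerve cells of the hippocampus, and 10 genes that mark them or their classes are described here: Gad1, Gad2, Slc32a1, Sst, Pvalb, Vip, Npy, Cck, Lhx6 and Reln. They were taken by symbol, and all 10 matched an identifier among the 37620 Ensembl genes that were counted. RNA sequencing was done on hippocampi of C57BL/6 mice aged 13 weeks, 3 with a miR-17-92 knockout and 3 wildtype, and no litter gave more than 1 mouse. The labels name neither a Cre driver, nor the cells in which the cluster was deleted, nor the deleted segment, and they give no treatment for either genotype. All 10 markers passed the filter on low counts and were tested among 16432 genes.

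Interneurons make the transmitter GABA from glutamate and load it into vesicles, and every class shares this machinery. The classes differ in origin and in what else they contain. Cells from the medial ganglionic eminence of the embryo, which need the transcription factor Lhx6, become parvalbumin or somatostatin cells, and cells from the caudal eminence include those with VIP or cholecystokinin. Parvalbumin cells inhibit the cell bodies of pyramidal neurons, somatostatin cells their distal dendrites, and VIP cells mainly inhibit other interneurons.

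Reads assigned to genes ranged from 26439693 to 57246827 in knockout libraries and from 31731263 to 43588323 in wildtype libraries. Levels below are CPM, a gene's reads in proportion to its library's total, which was scaled by the TMM method; its factors lay between 0.996 and 1.00. The fewest reads for any marker were the 484 of Vip in knockout replicate 1, where counting alone gives an error of 4.55%. The cluster's host transcript Mir17hg held 30, 35 and 37 reads in knockout replicates 1, 2 and 3, against 43, 47 and 36 reads in wildtype replicates 1, 2 and 3. Mir17hg measured 0.93, 1.33 and 0.65 CPM in knockout mice, against 1.07, 1.07 and 1.13 CPM in wildtype mice. It was highest in knockout replicate 2 and lowest in knockout replicate 3. Its log2 fold, knockout over wildtype as for every fold below, was -0.22 (SE 0.28, adjusted p = 0.813) and 0.04 without knockout replicate 3, and since the deleted segment is not given, this does not check the genotype labels. A whole hippocampus was sequenced, so fewer interneurons and less RNA per interneuron cannot be told apart in any value below.

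The 6 main mature miRNAs of the cluster are shown first, because they are what the cluster encodes and their seeds are used below to read the markers' 3' UTRs. The sequences are RefSeq's on GRCm38.p6 (chromosome 14, plus strand), with the seed, bases 2 to 8, in capitals; they fall into 4 seeds, with miR-17 and miR-20a sharing the first and miR-19a and miR-19b the third.
mmu-miR-17-5p: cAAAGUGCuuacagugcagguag
mmu-miR-20a-5p: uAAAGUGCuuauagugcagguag
mmu-miR-18a-5p: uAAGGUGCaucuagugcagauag
mmu-miR-19a-3p: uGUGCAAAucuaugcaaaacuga
mmu-miR-19b-3p: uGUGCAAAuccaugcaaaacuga
mmu-miR-92a-3p: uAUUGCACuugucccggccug

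None of the 10 markers differed between knockout and wildtype hippocampi in edgeR's quasi-likelihood test, in which 0% of all genes tested passed an adjusted p of 0.05. At an unadjusted p under 0.05 there were again 0 markers in this test, while 10.6% of all genes tested fell under it. DESeq2 also called 0 of the 10 markers, and it called 1.33% of the genes to which it gave an adjusted p. Of the markers 5 had a positive and 5 a negative fold, with a median log2 fold of -0.02. Their median absolute log2 fold was 0.07, against 0.08 for all genes tested.

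**Figure D1:**
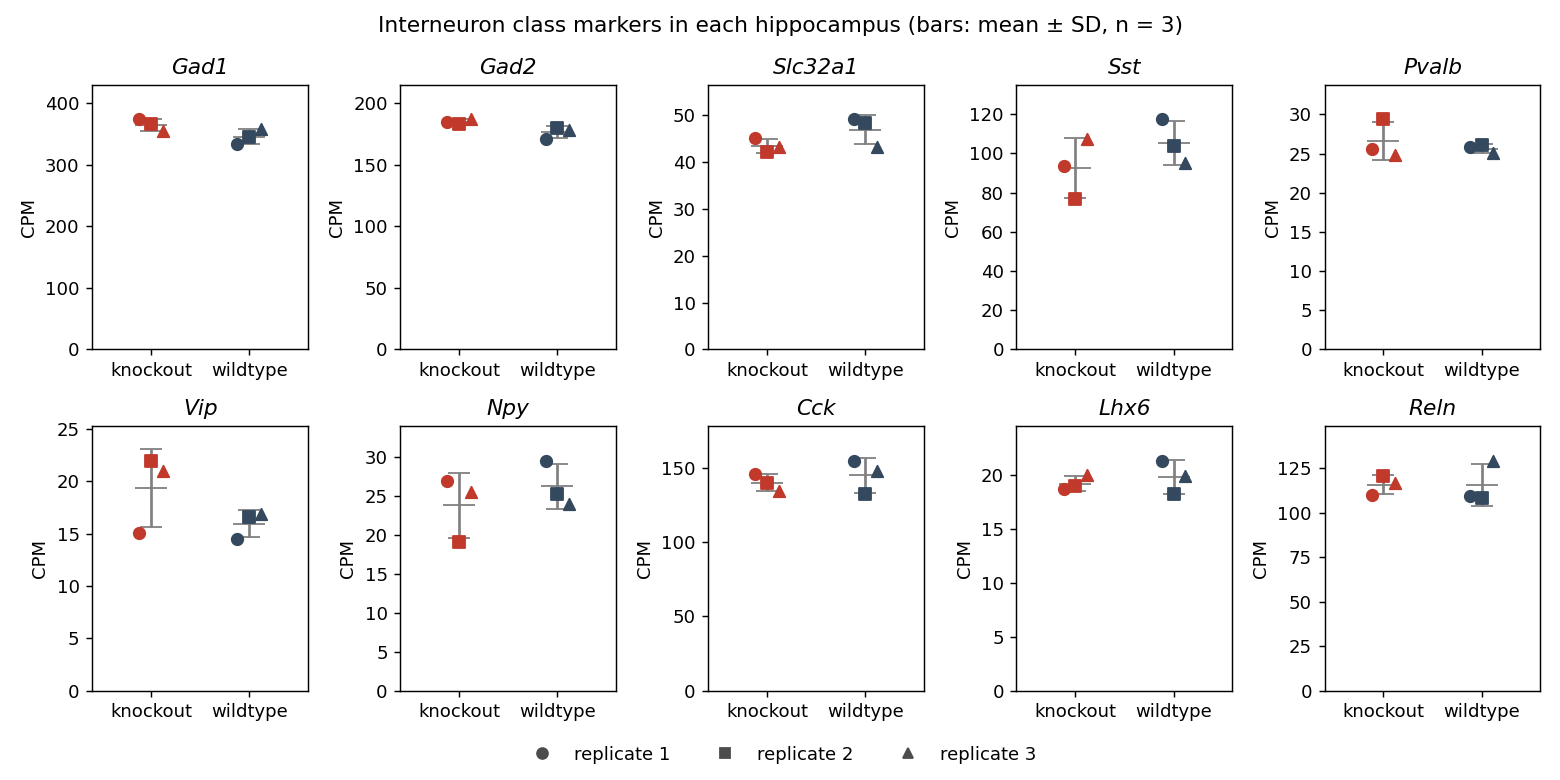
CPM of the 10 markers in each mouse, with knockout left of wildtype and the mean ± SD of each genotype (n = 3). For Gad2 every knockout point lies above every wildtype point, and for the other 9 markers the genotypes overlap.

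The genes of GABA synthesis were the most even from mouse to mouse. Gad1 encodes GAD67, the glutamate decarboxylase that makes most of the brain's GABA. It measured 374, 366 and 355 CPM in knockout replicates 1, 2 and 3, against 334, 345 and 359 CPM in wildtype replicates 1, 2 and 3. The knockout mean was higher, at 365 ± 9.67 against 346 ± 12.4 CPM in wildtype mice (SD, n = 3 each), but wildtype replicate 3 lay above knockout replicate 3. The log2 fold of Gad1 was 0.08 (SE 0.04, 95% interval -0.02 to 0.17, adjusted p = 0.561), so the interval of the fold itself was 0.988 to 1.13.

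Gad2 encodes GAD65, the decarboxylase concentrated at nerve terminals. It measured 185, 183 and 187 CPM in knockout mice, against 171, 180 and 178 CPM in wildtype mice. Every knockout mouse lay above every wildtype mouse, as was so in this direction for 8.29% of all genes tested. The log2 fold of 0.07 (SE 0.04, 95% interval -0.02 to 0.16) did not pass the threshold (adjusted p = 0.584). Counting both directions, 1 of the 10 markers was free of overlap, where 16.6% of all genes tested were.

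Slc32a1 encodes VGAT, which fills synaptic vesicles with GABA. It measured 45.04, 42.1 and 43.1 CPM in knockout mice, against 49.0, 48.3 and 43.3 CPM in wildtype mice. Its fold had the opposite sign to those of the decarboxylases, at -0.11 on the log2 scale (SE 0.06, 95% interval -0.25 to 0.02, adjusted p = 0.557). Wildtype replicate 3 lay within the knockout range. The antisense gene Gm14205, which shares exon sequence with Slc32a1, had 0 reads in the 6 libraries.

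**Figure D2:**
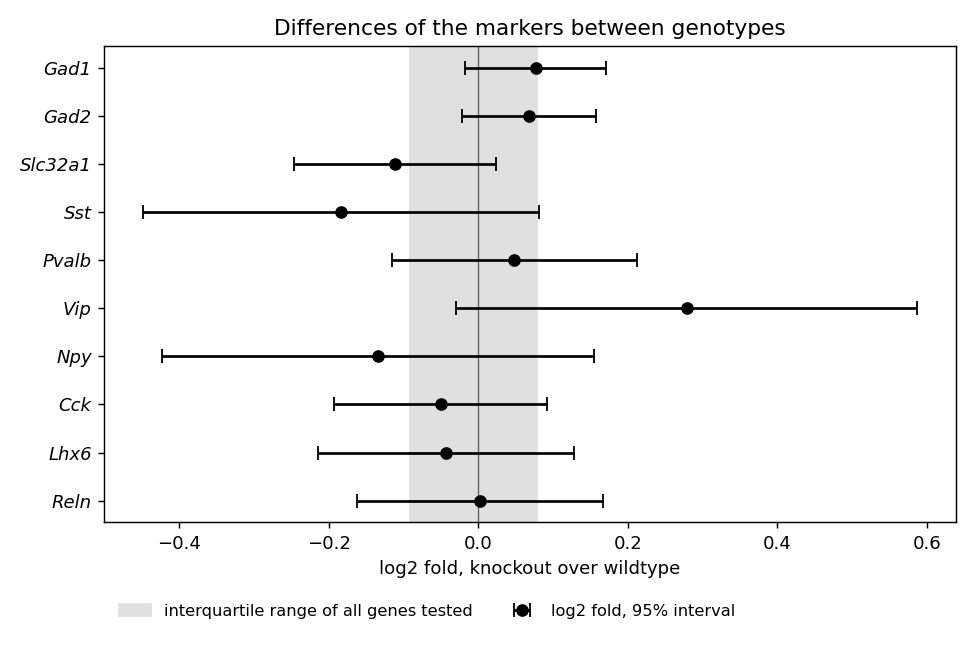
Log2 fold of each marker, knockout over wildtype, with its 95% interval, and the interquartile range of all genes tested as a band. Every interval spans 0, and those of Vip (-0.03 to 0.59), Npy (-0.42 to 0.15) and Sst (-0.45 to 0.08) are the widest.

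Of the markers of cells from the medial ganglionic eminence, somatostatin varied from mouse to mouse more than parvalbumin or Lhx6. Sst encodes the peptide of dendrite-targeting interneurons. It measured 93.4, 76.9 and 108 CPM in knockout mice, against 117, 104 and 95.02 CPM in wildtype mice. The ranges overlapped, with knockout replicate 3 above wildtype replicates 2 and 3. The log2 fold was -0.18 (SE 0.12, 95% interval -0.45 to 0.08, adjusted p = 0.617). It was -0.07 without knockout replicate 2, -0.31 without knockout replicate 3 and -0.10 without wildtype replicate 1.

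The Sst promoter is shown because somatostatin is a textbook target of CREB, the factor that couples cAMP and neuronal activity to transcription. The 150 bases before the start, from RefSeq's GRCm38.p6 table (chr16:23890845-23890994, minus strand), hold the palindrome TGACGTCA, in capitals, which begins 48 bases before the start. In the table's 32851 promoters, taken from 250 bases before to 50 after each start and searched on both strands, 1.79% held these letters. All 10 markers matched the table, with 13 promoters in all, and among them the palindrome was in that of Sst alone.
Sst promoter: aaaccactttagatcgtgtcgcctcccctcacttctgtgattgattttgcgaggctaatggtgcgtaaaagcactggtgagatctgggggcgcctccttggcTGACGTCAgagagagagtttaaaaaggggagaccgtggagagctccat

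Npy encodes neuropeptide Y, found in many somatostatin cells and in neurogliaform cells. It measured 26.8, 19.1 and 25.5 CPM in knockout mice, against 29.5, 25.2 and 23.9 CPM in wildtype mice. Knockout replicate 2 was the lowest of the 6 mice and wildtype replicate 1 the highest, as for Sst. The log2 fold of Npy was -0.13 (SE 0.13, adjusted p = 0.737), and -0.0042 without knockout replicate 2, -0.23 without knockout replicate 1 or -0.04 without wildtype replicate 1.

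Pvalb encodes parvalbumin, the calcium buffer of fast-spiking basket cells. It measured 25.6, 29.4 and 24.8 CPM in knockout mice, against 25.8, 26.1 and 25.04 CPM in wildtype mice. Knockout replicate 2 stood highest, and the other 5 mice lay within 24.8 to 26.1 CPM. The log2 fold was 0.05 (SE 0.07, 95% interval -0.12 to 0.21, adjusted p = 0.844), and -0.02 without knockout replicate 2.

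Lhx6 encodes the LIM homeodomain factor that cells of the medial ganglionic eminence keep into adulthood. It measured 18.7, 18.9 and 20.0 CPM in knockout mice, against 21.3, 18.2 and 19.9 CPM in wildtype mice. The knockout mice lay inside the wildtype range. The log2 fold of Lhx6 was -0.04 (SE 0.08, 95% interval -0.21 to 0.13, adjusted p = 0.870). It was 0.01 without wildtype replicate 1, -0.10 without wildtype replicate 2 and -0.13 with counts thinned to the smallest library.

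Of the markers linked to the caudal eminence, Vip had the largest fold among the 10, at 0.28 on the log2 scale (SE 0.14, 95% interval -0.03 to 0.59). Vip encodes vasoactive intestinal peptide, the marker of interneurons that inhibit other interneurons. It measured 15.1, 21.98 and 21.0 CPM in knockout mice, against 14.5, 16.6 and 16.9 CPM in wildtype mice. Knockout replicates 2 and 3 lay above all wildtype mice, and knockout replicate 1 lay within the wildtype range. The adjusted p of Vip was 0.517, and the interval of the fold was 0.980 to 1.501. The log2 fold was 0.43 without knockout replicate 1 (adjusted p = 0.288, in a range of 0.288 to 0.849 over the alternatives run) and 0.19 without knockout replicate 2.

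The Vip promoter is shown beside that of Sst because it holds the shorter core TGACG, in capitals, which begins 79 bases before the start (150 bases before the start, chr10:5639068-5639217, plus strand). The core was searched on both strands, and the palindrome contains it on each strand. It was in promoters of 4 of the 10 markers, Gad2, Sst, Vip and Cck, and in 20.8% of all promoters of the table.
Vip promoter: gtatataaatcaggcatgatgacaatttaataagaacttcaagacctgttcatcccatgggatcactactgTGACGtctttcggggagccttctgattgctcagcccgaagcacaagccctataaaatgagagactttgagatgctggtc

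Cck encodes cholecystokinin, which marks a class of basket cells and is also made by pyramidal neurons. It measured 146, 140.0 and 134 CPM in knockout mice, against 155, 132 and 148 CPM in wildtype mice. The knockout mice lay inside the wildtype range. The log2 fold of Cck was -0.05 (SE 0.06, 95% interval -0.19 to 0.09, adjusted p = 0.807), and 0.0002 without wildtype replicate 1.

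Reln encodes reelin, a secreted glycoprotein that in the adult hippocampus comes from interneurons and from the remaining Cajal-Retzius cells. It measured 110.0, 121 and 117 CPM in knockout mice, against 109.5, 108 and 129 CPM in wildtype mice. The knockout mice again lay inside the wildtype range. The log2 fold of Reln was 0.0022 (SE 0.07, 95% interval -0.16 to 0.17, adjusted p = 0.994). An antisense gene that shares exon sequence with Reln, Gm10475, had 19 reads in the 6 libraries, against 26621 for Reln.

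Individual mice differed more in Sst, Npy and Vip than in the other markers. The highest library exceeded the lowest 1.53-fold for Sst, 1.55-fold for Npy and 1.52-fold for Vip, and 1.09-fold to 1.19-fold for the other 7. Knockout replicate 2 was the lowest of the 6 mice in Sst, Npy and Slc32a1 and the highest in Pvalb and Vip. Wildtype replicate 1 was the highest in Sst, Npy, Slc32a1, Cck and Lhx6 and the lowest in Gad1, Gad2 and Vip.

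**Figure D3:**
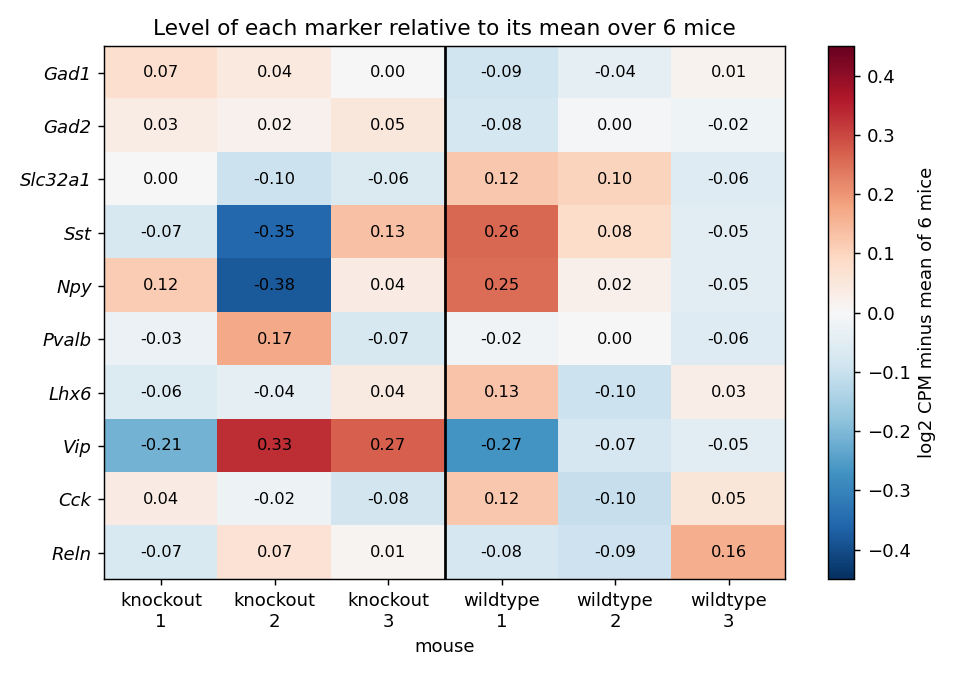
Log2 CPM of each marker minus its mean over the 6 mice, by mouse, with knockout mice left of wildtype mice. Knockout replicate 2 is low in Sst (-0.35) and Npy (-0.38) and high in Vip (0.33), and wildtype replicate 1 is high in Sst (0.26) and Npy (0.25) and low in Vip (-0.27).

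Over the 10 markers, the root mean square of these centred log2 values was 0.0902, 0.206 and 0.106 in knockout replicates 1, 2 and 3, against 0.164, 0.0731 and 0.0669 in wildtype replicates 1, 2 and 3. Over the 9887 genes at 10 CPM or more it lay between 0.112 and 0.119 in knockout mice and between 0.116 and 0.129 in wildtype mice. Knockout replicate 2 and wildtype replicate 1 thus lay farthest from the marker means without standing apart over all these genes. Knockout replicate 2 was also the smallest library and had the highest share of reads placed at several sites, 22.6%, and the part of either in its marker levels was not tested.

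The ratio of Npy to Sst varied less than either gene, though more than the level of any of the 7 steadier markers. Both genes were lowest in knockout replicate 2 and highest in wildtype replicate 1, while knockout replicate 1 ranked 5 of 6 in Sst and 2 of 6 in Npy. Npy reads per 100 Sst reads were 28.8, 24.8 and 23.7 in knockout mice, against 25.1, 24.2 and 25.2 in wildtype mice, a 1.22-fold range. Vip reads per 100 Sst reads were 16.1, 28.6 and 19.6 in knockout mice, against 12.3, 16.0 and 17.8 in wildtype mice, a 2.32-fold range. Gad2 reads per 100 Gad1 reads stayed within 49.4 to 52.6 in knockout mice and within 49.7 to 52.1 in wildtype mice.

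**Figure D4:**
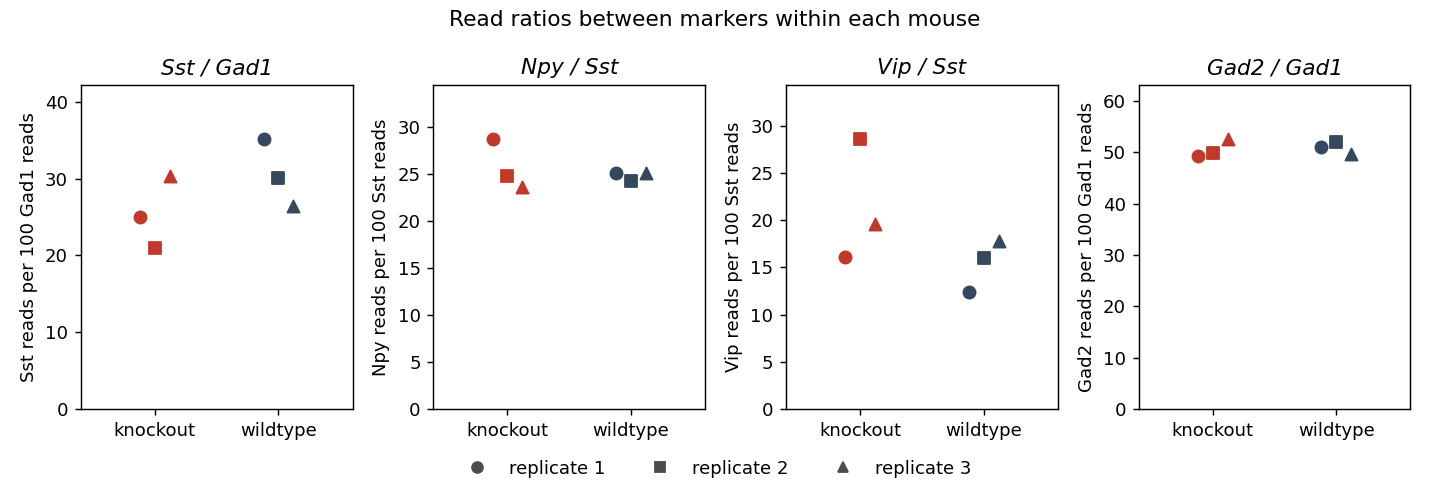
Reads of one marker per 100 reads of another in each mouse, knockout left of wildtype. Gad2 to Gad1 and Npy to Sst vary least, and Vip to Sst varies most, from 12.3 in wildtype replicate 1 to 28.6 in knockout replicate 2.

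Some further genes found in somatostatin cells were chosen after their values were seen. Cort, which encodes the somatostatin-like peptide cortistatin, measured 2.33, 1.18 and 1.79 CPM in knockout mice, against 2.57, 1.97 and 1.57 CPM in wildtype mice. Crhbp, which encodes a binding protein for corticotropin-releasing hormone, measured 19.5, 16.9 and 20.0 CPM in knockout mice, against 23.2, 21.6 and 20.1 CPM in wildtype mice. Both were lowest in knockout replicate 2 and highest in wildtype replicate 1, as Sst and Npy were, but other genes of the same list were not. Elfn1 was lowest in knockout replicate 1 and highest in wildtype replicate 2, Nos1 lowest in knockout replicate 2 and highest in wildtype replicate 3, and Chodl lowest in wildtype replicate 2 and highest in wildtype replicate 3. Of 29 interneuron genes outside the 10 markers, at 10 CPM or more, 6 were lowest and 3 highest in knockout replicate 2. In wildtype replicate 1, 4 were lowest and 8 highest. Other mice had like counts: 8 were highest in knockout replicate 3, 6 lowest in knockout replicate 1 and 7 lowest in wildtype replicate 2. Over all genes at that level, 16.4% were lowest and 17.6% highest in knockout replicate 2. In wildtype replicate 1, 18.4% were lowest and 16.8% highest. Crhbp was free of overlap between genotypes, as were 16.6% of all genes tested in either direction. Its log2 fold was -0.20 (SE 0.09, adjusted p = 0.458). The vesicular glutamate transporter gene Slc17a6, also chosen after its values were seen, ran the other way. Its highest value was in knockout replicate 2 (25.3 CPM) and its lowest in wildtype replicate 1 (12.8 CPM). Neurod2 and Emx1, glutamatergic markers chosen in the same way, were instead lowest in knockout replicate 2, at 131 and 5.05 CPM. Both were highest in wildtype replicate 1, at 156 and 7.80 CPM. The other glutamatergic markers described below had neither pair of extremes. The part of these genes in the marker levels was not tested.

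To set each class marker against the common machinery, its reads were divided by those of Gad1 plus Gad2 in the same library. Sst came to 16.9 ± 2.93 reads per 100 in knockout mice and 20.3 ± 2.81 in wildtype mice (SD, n = 3 each; log2 difference -0.27, exact two-sided permutation p = 0.3), and the difference ran from -0.39 to -0.14 with a mouse left out. Slc32a1 came to 7.90 ± 0.201 per 100 in knockout mice and 8.99 ± 0.849 in wildtype mice (log2 difference -0.18, exact permutation p = 0.2). Vip came to 3.53 ± 0.725 per 100 in knockout mice and 3.06 ± 0.162 in wildtype mice (log2 difference 0.19, exact permutation p = 0.4), and the difference ran from 0.08 to 0.37 with a mouse left out. Of the 8 ratios 7 had a lower mean in knockout mice, and they share the denominator. None passed, with Benjamini-Hochberg adjusted values over the 8 exact permutation tests of 0.571 or more, and 3 mice against 3 cannot give a p below 0.1.

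Per kilobase of merged exon, the peptide genes Sst and Cck stood highest and Vip, Reln and Lhx6 lowest. Sst averaged 137 ± 19.3 CPM per kilobase and Cck 109 ± 6.60 (SD, 6 mice), with overlapping ranges. Gad1 at 46.5 ± 1.88 and Npy at 44.2 ± 6.14 CPM per kilobase also overlapped. Gad2 at 30.7 ± 0.972, Pvalb at 25.1 ± 1.59 and Slc32a1 at 16.1 ± 1.04 CPM per kilobase followed without overlap. Vip at 5.19 ± 0.918 and Reln at 4.88 ± 0.347 CPM per kilobase overlapped, and Lhx6 was last at 4.06 ± 0.236. With the length of the longest transcript, Cck (178 CPM per kilobase) stood above Sst (137) and Reln (9.89) above Vip (6.98), and Gad1 (98.7) stood well above Npy (44.2).

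In the wider GABA pathway there were also 0 calls in edgeR, which called 0% of all genes tested. DESeq2 called 1.33% of its genes, and 10.6% of all genes tested were at an unadjusted p under 0.05. Of 10 genes of GABA synthesis, packaging and clearance, which include Gad1, Gad2 and Slc32a1, 0 passed in edgeR or DESeq2 and 1 was higher at an unadjusted p under 0.05. Of these genes 8 had a positive fold and the median log2 fold was 0.04. Slc6a13, which encodes the transporter GAT2 found in meninges and vessels, had 10.03 ± 0.635 CPM in knockout mice and 7.49 ± 2.06 CPM in wildtype mice (SD, n = 3 each). Its log2 fold was 0.42 (SE 0.17, adjusted p = 0.447), and 0.26 to 0.67 with each mouse left out in turn. Slc6a11, the astrocytic transporter GAT3, had a log2 fold of -0.11 (SE 0.05, adjusted p = 0.471).

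Of 17 transcription factors of interneurons, Lhx6 included, 0 passed in edgeR, in DESeq2 or at an unadjusted p under 0.05; 6 had a positive and 11 a negative fold, with a median log2 fold of -0.04. Npas1, a bHLH-PAS transcription factor gene, had 12.2 ± 0.0511 CPM in knockout mice and 13.8 ± 0.881 CPM in wildtype mice (SD, n = 3 each). The genotypes did not overlap, as was so in either direction for 16.6% of all genes tested. The log2 fold of Npas1 was -0.17 (SE 0.08, adjusted p = 0.475). Zeb2, which directs interneurons toward the cortex and is also made by other cells, had a log2 fold of -0.12 (SE 0.06, adjusted p = 0.544), and -0.18 to -0.07 with a mouse left out.

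Of 28 further class markers 27 were tested and 0 passed in edgeR. At an unadjusted p under 0.05, 2 were higher and 4 lower, beside 10.6% of all genes tested in either direction. In DESeq2 1 was higher, beside 1.33% of its genes called. There were 12 positive and 15 negative folds and a median log2 fold of -0.03. Calb1 encodes calbindin, which some interneurons contain and which is abundant in dentate granule cells and some pyramidal cells. It measured 168, 172 and 180 CPM in knockout mice, against 124, 118 and 136 CPM in wildtype mice. There was no overlap, as was so in this direction for 8.29% of all genes tested. Its log2 fold was 0.46 (SE 0.06, adjusted p = 0.0624), just short of the threshold, and DESeq2 gave an adjusted p of 2.66e-09, the lowest of the alternatives, which ran up to 0.365. Kit, a receptor tyrosine kinase gene, had a log2 fold of -0.15 (SE 0.06, adjusted p = 0.442).

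The receptors for the markers' products had the smallest median absolute log2 fold of the lists, 0.03. Of 15 genes for receptors of somatostatin, NPY, VIP, cholecystokinin and reelin and the reelin adaptor Dab1, 13 were tested and 0 passed in edgeR, in DESeq2 or at an unadjusted p under 0.05. Their log2 folds ran from -0.05 to 0.16, with a median of 0.02. Npy5r, a receptor of NPY, had a log2 fold of 0.13 (SE 0.10, adjusted p = 0.687), and 0.07 to 0.20 with a mouse left out. Dab1 had a log2 fold of 0.04 (SE 0.05, adjusted p = 0.819), and 0.0029 to 0.07 with a mouse left out.

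Markers of other cells that a hippocampal dissection can hold were counted in the same way, and 0 passed in each list in edgeR. Over all genes tested, edgeR called 0%, and 10.6% were at an unadjusted p under 0.05. DESeq2 called 1.33% of its genes. The 10 glutamatergic markers had a median log2 fold of 0.02, with 2 lower at an unadjusted p under 0.05 and 1 lower in DESeq2. They summed to 7879 to 9466 CPM in knockout mice and 8032 to 8279 CPM in wildtype mice. Most of each sum was Camk2a, with 5262 to 6785 CPM in knockout mice and 5314 to 5723 CPM in wildtype mice. Among the glutamatergic markers Grin2a, an NMDA receptor subunit gene, had a log2 fold of -0.29 (SE 0.06, adjusted p = 0.250). DESeq2 gave Grin2a an adjusted p of 0.00966, in a range up to 0.591 over the alternatives. Emx1 had a log2 fold of -0.31 (SE 0.13, adjusted p = 0.442). Of the 8 Cajal-Retzius markers, which include Reln, 7 were tested, with a median log2 fold of 0.01 and 0 at an unadjusted p under 0.05 or in DESeq2. They summed to 186 to 192 CPM in knockout mice and 178 to 204 CPM in wildtype mice. Most of each sum was Reln, with 110 to 121 CPM in knockout mice and 108 to 129 CPM in wildtype mice. Within them Trp73 had a log2 fold of -0.36 (SE 0.17, adjusted p = 0.503), and Calb2, which also marks interneurons, one of 0.13 (SE 0.06, adjusted p = 0.517).

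The tissue label was checked on 10 hippocampal and 10 striatal markers. The hippocampal genes had a median log2 fold of -0.0053, with 2 higher at an unadjusted p under 0.05 and in DESeq2. Of all genes tested 10.6% were under that p in either direction, and DESeq2 called 1.33% of its genes. They summed to 2642 to 2739 CPM in knockout mice and 2542 to 2837 CPM in wildtype mice. Calb1 is on that list too, and Pkp2, a desmosomal plaque gene, had a log2 fold of 0.25 (SE 0.06, adjusted p = 0.285; DESeq2 adjusted p = 0.0464, in a range up to 0.779). Of the striatal genes 9 were tested, with a median log2 fold of 0.07 and 0 at an unadjusted p under 0.05 or in DESeq2. They summed to 76.5 to 92.2 CPM in knockout mice and 79.8 to 85.6 CPM in wildtype mice, and Six3 among them had 0 reads in all 6 libraries. Adora2a and Foxp2, the striatal genes with the smallest p, had log2 folds of -0.29 (SE 0.21, adjusted p = 0.657) and 0.28 (SE 0.23, adjusted p = 0.689). With a mouse left out they ran from -0.44 to -0.21 for Adora2a and from 0.12 to 0.46 for Foxp2.

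**Figure D5:**
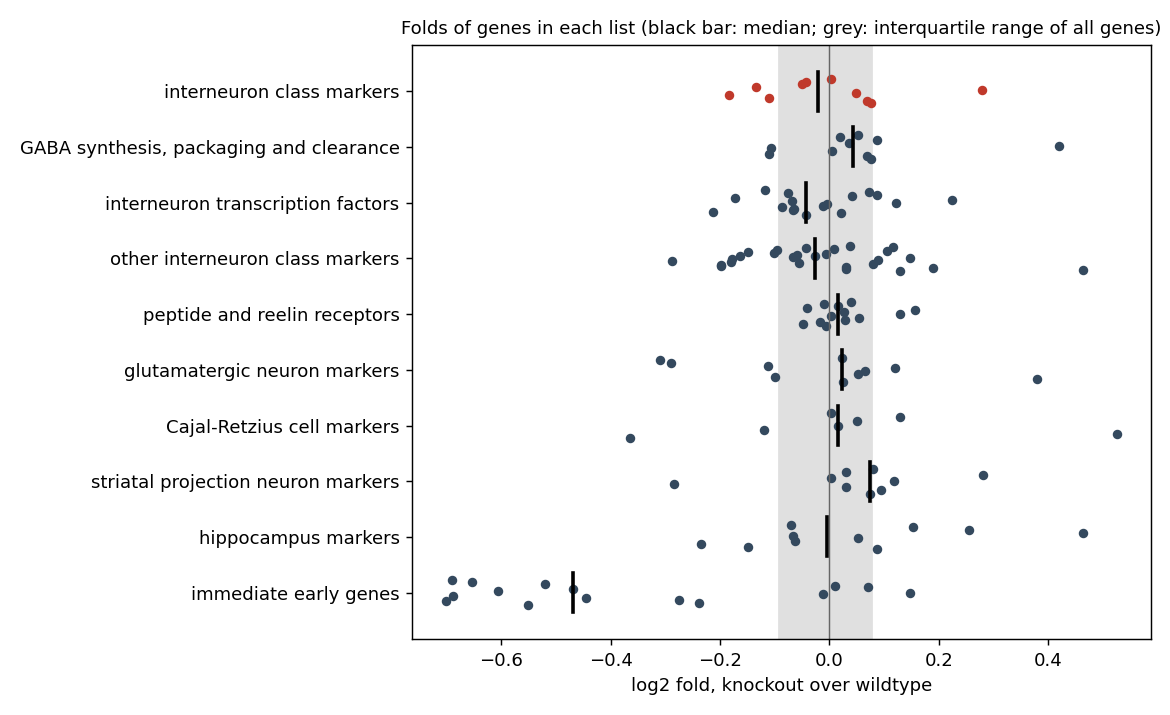
Log2 folds, knockout over wildtype, of the genes of each list, with the list's median. The interneuron lists have medians between -0.04 and 0.04, and the immediate early genes have a median of -0.47.

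Immediate early genes, whose transcription follows neuronal activity quickly, were the list farthest from level. Of 15 such genes 0 passed in edgeR. At an unadjusted p under 0.05, 1 was higher and 11 were lower in knockout mice, beside 10.6% of all genes tested in either direction. In DESeq2 10 were lower, beside 1.33% of its genes called. On this list 12 genes had a negative fold, and the median log2 fold was -0.47. The list summed to 1170 to 1214 CPM in knockout mice and 1387 to 1569 CPM in wildtype mice. Nr4a1, an orphan nuclear receptor gene, had a log2 fold of -0.47 (SE 0.07, adjusted p = 0.118), and Egr2, a zinc finger factor gene, one of -0.70 (SE 0.12, adjusted p = 0.125). Their part in the levels of Sst, Npy and Vip was not tested.

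The seeds printed above were then searched in the 3' UTRs of the markers, using the longest 3' UTR of each gene in GENCODE M21 on GRCm38. Sites were 7 bases that pair with the seed: GCACTTT for miR-17 and miR-20a, GCACCTT for miR-18a, TTTGCAC for miR-19 and GTGCAAT for miR-92a. Of the 10 markers 5 held 6 such sites, and 35.03% of 14542 genes held at least 1. The 6 sites are shown with the pairing bases in capitals, in windows of 30 bases on the strand of the gene.
Gad2, first site (chr2:22692573-22692602, plus strand): gttgtgtccatGCACTTTttgctagtgaat
Gad2, other site (chr2:22693139-22693168, plus strand): attgaggttgtGCACTTTatattgaattgt
Lhx6 (chr2:36082055-36082084, minus strand): aaaaattgtaaGCACTTTttttgtaaaacc
Pvalb (chr15:78191283-78191312, minus strand): gttcaatctctGCACCTTtcccacaaggag
Slc32a1 (chr2:158615588-158615617, plus strand): aaactcatcttGTGCAATgtatccggtcgt
Cck (chr9:121489918-121489947, minus strand): ctgtccagagtGTGCAATgcagccacatct

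The sites of Gad2 and Lhx6 match the miR-17 and miR-20a seed, that of Pvalb the miR-18a seed, and those of Slc32a1 and Cck the miR-92a seed. No marker held a miR-19 match in this window, and Sst, Npy and Vip, the markers that varied most, held none of the 4. The median log2 fold was -0.04 over the markers with a site and 0.0022 over the 5 without, beside medians of 0.01 and -0.0057 for all genes with and without a site. With 6-base matches, 8 of the 10 markers and 69.9% of all genes held a site. A match of letters is a description and does not show that a miRNA acts there.

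The profile of the GABA machinery over the 6 mice, taken as the mean centred log2 CPM of Gad1, Gad2 and Slc32a1, lay between -0.02 and 0.04, partly because its members had opposite signs. In knockout replicate 2 the centred values were 0.04 for Gad1, 0.02 for Gad2 and -0.10 for Slc32a1, and in wildtype replicate 1 they were -0.09, -0.08 and 0.12 for the same genes, so the mean does not stand for each of them. The 3 genes nearest to that mean were Rnf167, a ubiquitin ligase gene, Ncaph2, a condensin subunit gene, and Dync1li2, a dynein light intermediate chain gene, with root mean square differences of 0.0083, 0.0091 and 0.0095. As many as 2030 genes lay within 0.05 of the mean, so a likeness at this level is shared by many genes.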

How the data were processed

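Hippocampal RNA from 3 knockout and 3 wildtype mice was sequenced, 1 library per mouse. The values the authors deposited are raw counts of reads for each gene. Build mm9 and the tools HTSeq, SAMtools, DESeq2, STAR 2.3.0e and FastQC 0.10.1 are named per the submitters' processing notes. What each tool did, the gene annotation and whether strand was used are not given in the sources used, so reads of a gene and of an overlapping or antisense gene could be mixed. Rows that name no gene held 38.0% to 40.3% of each total and were left out.

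Genotype was tested with edgeR 4.0.16 (R 4.3.3; quasi-likelihood, TMM, filterByExpr, no covariate), with Benjamini-Hochberg adjustment over 16432 genes at 0.05. Folds are knockout over wildtype. Alternatives used DESeq2 1.42.0, limma 3.58.1, other scalings and filters, thinned counts and left-out mice. The code was checked on simulated counts. Counting errors cover counting only. The mice came from different litters.

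Symbols were found for 32897 of 37620 identifiers. Names, lengths and 3' UTRs are from GENCODE M21 (GRCm38), and sequences of miRNAs and promoters from RefSeq (GRCm38.p6); coordinates refer to these builds, not to mm9. The members and lists were chosen with earlier results of these data known. Beside the 10 markers and Mir17hg, the text names from each list up to 2 other genes with the smallest p, and the 3 genes nearest to the profile of Gad1, Gad2 and Slc32a1; others are said to be chosen later.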

Additional observations from a re-analysis of the deposited data

Results flagged for a closer look

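The rows that name no gene gave the only value marked for a closer look. The share of each library's total placed at several sites was 21.2% to 22.6% in knockout libraries and 20.2% to 21.0% in wildtype libraries, so the lowest knockout library, at 21.2%, lay above all wildtype libraries. These reads enter no marker level, and the cause was not tested.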

How the results depend on the processing

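The number of interneuron markers called was 0 under every alternative run, including an adjusted p of 0.10. DESeq2 called the most genes of any alternative, 1.33% of those to which it gave an adjusted p. At such shares, 0 of 10 markers says little about the markers themselves. Over all genes, 0 were called by the edgeR test as reported, 164 by DESeq2 (70 higher and 94 lower in knockout mice), 15 by edgeR's robust fit, 62 with no filter beyond 1 read, 18 at an adjusted p of 0.10, and 0 to 17 with a mouse left out (17 without knockout replicate 3, 16 without wildtype replicate 2, and 2 each without knockout replicate 1 and wildtype replicate 1); the cause was not tested. Of 160 alternative values of the marker folds, 150 kept their direction and 10 reversed. With a mouse left out, the log2 fold ranged from -0.025 to 0.096 for Pvalb, -0.113 to 0.00021 for Cck, -0.102 to 0.013 for Lhx6, -0.044 to 0.086 for Reln and -0.486 to 0.041 for Mir17hg. That of Reln was also -0.0012 with the library total as a covariate, -0.0095 with thinned counts and -0.0018 with upper quartile factors. The ratio of Pvalb to Gad1 plus Gad2 ranged from -0.0999 to 0.013 on the log2 scale with a mouse left out. Median log2 folds with a mouse left out ranged from -0.067 to 0.0068 for the 10 markers, -0.035 to 0.0023 for the further class markers (-0.018 with no filter beyond 1 read), -0.040 to 0.049 for glutamatergic genes, -0.031 to 0.049 for hippocampal genes, -0.066 to 0.013 for interneuron transcription factors, -0.0081 to 0.037 for receptors, -0.044 to 0.086 for Cajal-Retzius and 0.0058 to 0.167 for striatal genes. The log2 fold then ranged from -0.18 to -0.10 for Kit, -0.42 to -0.20 for Emx1 and -0.52 to -0.23 for Trp73.

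With the replicate number as a replicate block, 0 genes and 0 markers were called, and the log2 fold of Sst was -0.19 and that of Vip 0.26. The mice came from different litters, so the numbers mark no pairs of littermates. Deviations of same-numbered mice correlated across genes at -0.10, -0.02 and -0.15, and a batch shared by same-numbered mice was not tested. With 3 mice a genotype, the widest marker interval, that of Vip, reached a fold of 1.501.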
